A study of Mus musculus with 4 samples.

Results

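The annexins are a family of proteins that bind phospholipid membranes when calcium is present. Each has a conserved core, built from repeats that hold the calcium sites, and a head at its N-terminus that differs from member to member. S100 proteins dock on these heads, S100a10 on Anxa2, S100a11 on Anxa1 and S100a6 on Anxa11, and S100A4 itself has been described as a ligand of Anxa2. In the lens, annexins are known among the proteins found at the membranes of epithelial and fiber cells.

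Of the 14924 genes in the deposited expression table, 8 were annexin genes of the set examined here, *Anxa1*, *Anxa2*, *Anxa3*, *Anxa4*, *Anxa5*, *Anxa6*, *Anxa7* and *Anxa11*, picked out by gene identifier and symbol, with no threshold on a measured value. All 8 passed the filter for testing. Lenses of S100A4-/- mice, a knockout line (*S100A4* null), were compared with lenses of WT littermates. Both groups were on the C57BL/6J background and 1 month old (postnatal day 30, P30), and no drug or other agent is named for either. Each group had 2 libraries of polyadenylated RNA, and each library was made from 6 to 12 pooled lenses. The study used mice of both sexes, and how they were spread over the pools is not given in the sources used here. The S100A4-/- libraries held 81602367 and 74108017 reads on genes and the WT libraries 70253985 and 68038158. In the S100A4-/- libraries *S100a4* had 17 and 18 reads, against 13810 and 13138 in WT, so every library matched its label.

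The heads are where the annexins differ most, and they begin at the first codon. The first 45 coding bases of each member are shown for this reason, 5′ to 3′, from the transcripts of GENCODE M21 (mouse genome build GRCm38). Capitals mark the start codon.
Anxa1: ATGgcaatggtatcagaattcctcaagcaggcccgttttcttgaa
Anxa2: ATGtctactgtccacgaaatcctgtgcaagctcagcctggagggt
Anxa3: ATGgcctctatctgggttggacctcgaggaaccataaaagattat
Anxa4: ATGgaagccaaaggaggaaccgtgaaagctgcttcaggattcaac
Anxa5: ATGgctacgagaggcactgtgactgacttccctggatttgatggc
Anxa6: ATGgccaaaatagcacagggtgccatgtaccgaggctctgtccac
Anxa7: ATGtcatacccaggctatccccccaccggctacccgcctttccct
Anxa11: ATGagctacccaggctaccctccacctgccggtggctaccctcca

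Read side by side, the starts of *Anxa7* and *Anxa11* were the most alike of the 28 pairs, with 23 of 45 bases equal. The starts of *Anxa1* and *Anxa2*, which carry the docking sites for S100a11 and S100a10, shared 20 of 45. So did those of *Anxa5* and *Anxa6* and those of *Anxa1* and *Anxa6*. Over the whole coding sequence the pairs were between 56.9% (*Anxa2* and *Anxa5*) and 69.5% (*Anxa5* and *Anxa6*) identical in aligned bases. The coding sequence had 346 codons for *Anxa1*, 339 for *Anxa2*, 323 for *Anxa3* and 319 each for *Anxa4* and *Anxa5*. *Anxa7* and *Anxa11*, with their long heads, had 463 and 503 codons, and *Anxa6*, whose core is duplicated, had 673. No pair was alike enough over its whole coding sequence to be called near-identical.

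The genes are spread over the genome. On GRCm38 *Anxa1* (ENSMUSG00000024659) lies on chromosome 19 from 20373428 to 20390944, *Anxa2* (ENSMUSG00000032231) on chromosome 9 from 69453620 to 69491795 and *Anxa3* (ENSMUSG00000029484) on chromosome 5 from 96793339 to 96845966. *Anxa4* (ENSMUSG00000029994) lies on chromosome 6 from 86736840 to 86793584, *Anxa5* (ENSMUSG00000027712) on chromosome 3 from 36448923 to 36475894 and *Anxa6* (ENSMUSG00000018340) on chromosome 11 from 54979108 to 55033445. *Anxa7* (ENSMUSG00000021814) and *Anxa11* (ENSMUSG00000021866) share chromosome 14, from 20455260 to 20480133 and from 25842156 to 25886804. *Anxa2*, *Anxa4* and *Anxa11* share 98, 75 and 113 exon bases, in this order, with a noncoding gene on the opposite strand, and *Anxa3* shares 112 with an unconfirmed gene model on its own strand. The libraries were stranded, but the strand setting of the read counting is not given in the sources used here. For *Anxa3* no strand setting would tell the genes apart. How reads on shared bases were assigned was not examined, so reads of such partners may be included or annexin reads left out.

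*Anxa1* was by far the most abundant annexin RNA of the WT lens. Levels of different genes are compared here as the normalized value (reads over the library's size factor) per kilobase of exon. On this scale *Anxa1* was at 6738 ± 35.9 (SD, n = 2 libraries) in WT lenses and ranked 132 among the 14782 genes with a known exon length. *Anxa1* encodes a protein known for its anti-inflammatory action and its inhibition of phospholipase A2. *Anxa2*, which joins membranes to actin, was at 1090.3 ± 8.22 (SD, n = 2), and *Anxa3* at 1018 ± 16.1 (SD, n = 2).

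The middle of the order was held by *Anxa6*, at 653 ± 28.6 (SD, n = 2), and *Anxa5*, the phosphatidylserine-binding protein used to stain dying cells, at 607 ± 3.89 (SD, n = 2). Well below them stood *Anxa7*, a protein of secretory granule fusion, at 129 ± 2.36 (SD, n = 2). *Anxa4*, a protein of epithelial membranes, was at 76.1 ± 2.72 (SD, n = 2) and *Anxa11* at 56.1 ± 6.34 (SD, n = 2). *Anxa1* thus stood 6.18 times above *Anxa2*, and *Anxa5* 4.70 times above *Anxa7*.

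Within each pair of neighbours the order held in 4 of 4 libraries, except that *Anxa4* was above *Anxa11* in 3 of 4. Over the 4 libraries together, the values of *Anxa2* and *Anxa3*, of *Anxa6* and *Anxa5* and of *Anxa4* and *Anxa11* overlapped, and those of the other neighbours did not. With the exons of the main coding transcript alone in place of all annotated exons, the order of the 8 genes was unchanged in both groups. The WT levels became 12092 for *Anxa1*, 2811 for *Anxa2*, 2325 for *Anxa3*, 769 for *Anxa6* and 623 for *Anxa5*. For *Anxa7*, *Anxa4* and *Anxa11* they became 283.5, 174 and 96.9. The steps depended on the length used. The ratio of *Anxa1* to *Anxa2* became 4.30, that of *Anxa5* to *Anxa7* went from 4.70 to 2.20, and that of *Anxa3* to *Anxa6* from 1.56 to 3.02.

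**Figure D1:**
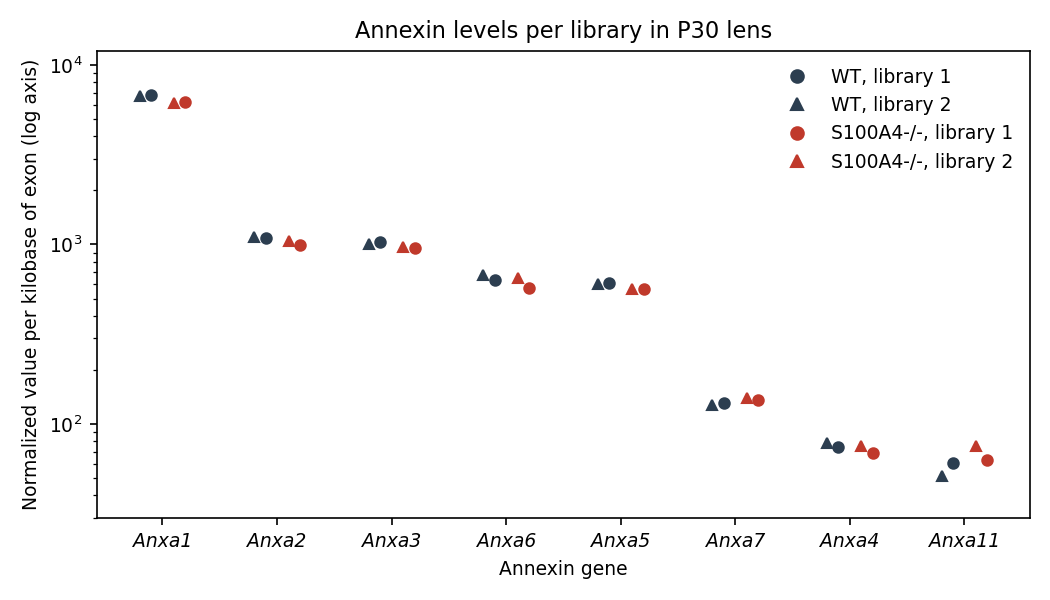
Level of each annexin gene, as the normalized value per kilobase of exon (log axis), with 1 point for each of the 2 WT (dark) and 2 S100A4-/- (red) libraries. *Anxa1* stands apart at the top, and the points of a gene lie close together, so that the steps between *Anxa1* and *Anxa2* and between *Anxa5* and *Anxa7* exceed the spread over libraries and groups.

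Annexin RNAs of the S100A4-/- lens stayed near their WT levels. *Anxa1* was 8.76% lower in S100A4-/- lenses and was the only member to pass an adjusted p of at most 0.05. *Anxa2*, *Anxa3*, *Anxa4*, *Anxa5* and *Anxa6* had mean values of 92.9% to 94.8% of WT, *Anxa7* 106.6% and *Anxa11* 123%, and none of these passed. No member approached the 2-fold change that the study set as its threshold. The test was limma on log2(value + 1) over 14780 genes, and fold changes on this scale slightly understate those of genes with few reads.

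*Anxa1* had normalized values of 18002 and 17789 in S100A4-/- lenses, against 19688 and 19539.6 in WT. Both S100A4-/- values lay below both WT values, and the libraries of a group differed by much less than the groups. The log2 fold change was −0.13 (standard error 0.04, 95% interval −0.22 to −0.05, limma, Benjamini-Hochberg adjusted p = 0.0429). With at least 17552 reads in each library, counting error was at most 0.755% of a value. The call was lost with DESeq2 (adjusted p = 0.0508) and with edgeR's quasi-likelihood test (adjusted p = 0.0923). In limma it was lost with scaling to equal totals (adjusted p = 0.407), with quantile normalization (0.0799) and without a variance trend (0.510). It was also lost when any 1 library was removed, while the log2 fold change stayed between −0.14 and −0.10 in every alternative. Since whole lenses were measured, fewer cells that express a gene and less of its RNA per cell cannot be told apart.

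The next most abundant members showed smaller differences in the same direction. For *Anxa2* the values were 3683 and 3901 in S100A4-/- against 4046 and 4089 in WT (log2 fold change −0.10, SE 0.05, limma, adjusted p = 0.305). For *Anxa3*, they were 3479 and 3537 against 3749.6 and 3667 (log2 fold change −0.08, SE 0.05, limma, adjusted p = 0.455). In both genes the groups did not overlap, and neither difference passed the test. Without S100A4-/- library 1 the log2 fold change of *Anxa2* was −0.06.

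*Anxa5* had the closest pair of S100A4-/- libraries of all members. Its values were 1000.2 and 1002 in S100A4-/- and 1083 and 1073 in WT (log2 fold change −0.11, SE 0.07, limma, adjusted p = 0.482). *Anxa6*, a protein of the plasma membrane and endosomes, had values of 1679 and 1902 against 1854 and 1973 (log2 fold change −0.10, limma, adjusted p = 0.470). *Anxa4* had values of 320.3 and 349.7 against 345 and 362 (log2 fold change −0.08, limma, adjusted p = 0.791). In *Anxa4* and *Anxa6* the groups overlapped, since the S100A4-/- library 2 lay above the WT library 1. Their fold changes rested on single libraries. For *Anxa6* the log2 fold change was −0.0079 without S100A4-/- library 1, −0.19 without S100A4-/- library 2 and −0.05 without WT library 2. For *Anxa4* it was −0.0152, −0.14 and −0.04 without the same libraries.

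The members with a higher mean in S100A4-/- lenses were *Anxa7* and *Anxa11*, the pair with the long heads. *Anxa7* had values of 818 and 831 in S100A4-/- against 783 and 763 in WT (log2 fold change 0.09, SE 0.08, limma, adjusted p = 0.605). *Anxa11*, whose protein acts in cell division and on RNA granules, had values of 259 and 313 against 251 and 214. Both S100A4-/- values of *Anxa11* lay above both WT values, but library 1 of S100A4-/- and library 1 of WT were close. Its log2 fold change of 0.30 (standard error 0.13, 95% interval 0.03 to 0.57) had an unadjusted p of 0.0315 and an adjusted p of 0.216 (limma). *Anxa11* also had the widest spread between replicates, a log2 difference of 0.27 within S100A4-/- and 0.23 within WT, and the fewest reads, from 195 to 309. For comparison, the median of this difference over all genes tested was 0.13 within S100A4-/- and 0.12 within WT. The log2 fold change of *Anxa11* was 0.17 without S100A4-/- library 2 and 0.19 without WT library 2, and at most 0.44 without another library.

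**Figure D2:**
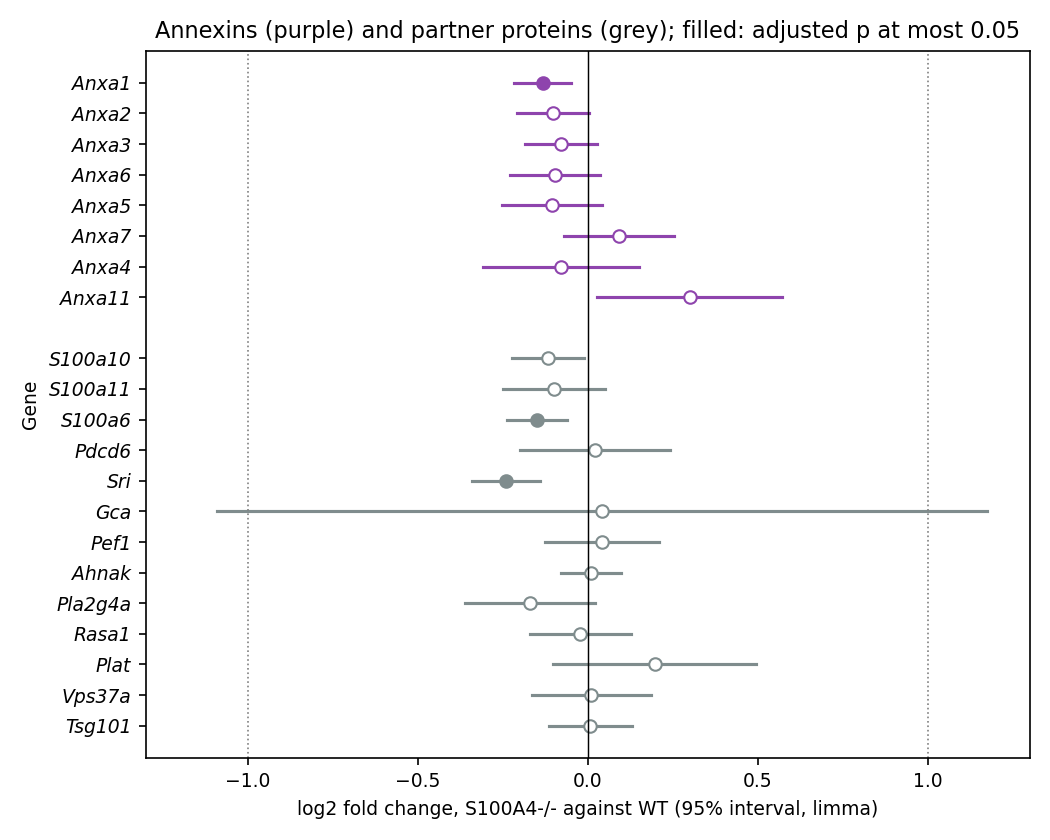
Log2 fold change of S100A4-/- against WT lenses (x axis) with its 95% interval from limma, for the 8 annexins (purple, in the order of their WT level) and 13 genes of annexin partner proteins (grey). Filled points, *Anxa1*, *S100a6* and *Sri*, passed an adjusted p of 0.05, and the dotted lines mark a 2-fold change, which no annexin interval reaches.

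Beside the whole table, the annexin counts read as follows. By limma 1 of the 8 members was lower at an adjusted p of at most 0.05 (1.33% of all genes tested) and 0 were higher (5.62% of all genes tested). These shares come from 197 lower and 831 higher genes, and with scaling to equal totals, where *Anxa1* did not pass, there were 55 lower and 783 higher. DESeq2 and edgeR each called 0 of 8, against 4.47% and 7.04% of all genes. With the 2-fold threshold added the count was 0 of 8 by limma, DESeq2 and edgeR, against 3.72%, 2.89% and 3.82% of all genes. At an unadjusted p under 0.05 it was 2 of 8, *Anxa1* and *Anxa11*, against 17.7% of all genes. The groups did not overlap in 6 members, 4 lower (23.2% of all genes) and 2 higher (23.7% of all genes). The median log2 fold change was −0.09 over the 8 members and −0.0052 over all genes tested. The 95% intervals of the 8 members lay between a fall of 19.2% and a rise of 48.7%, so each excluded a 2-fold change.

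**Figure D3:**
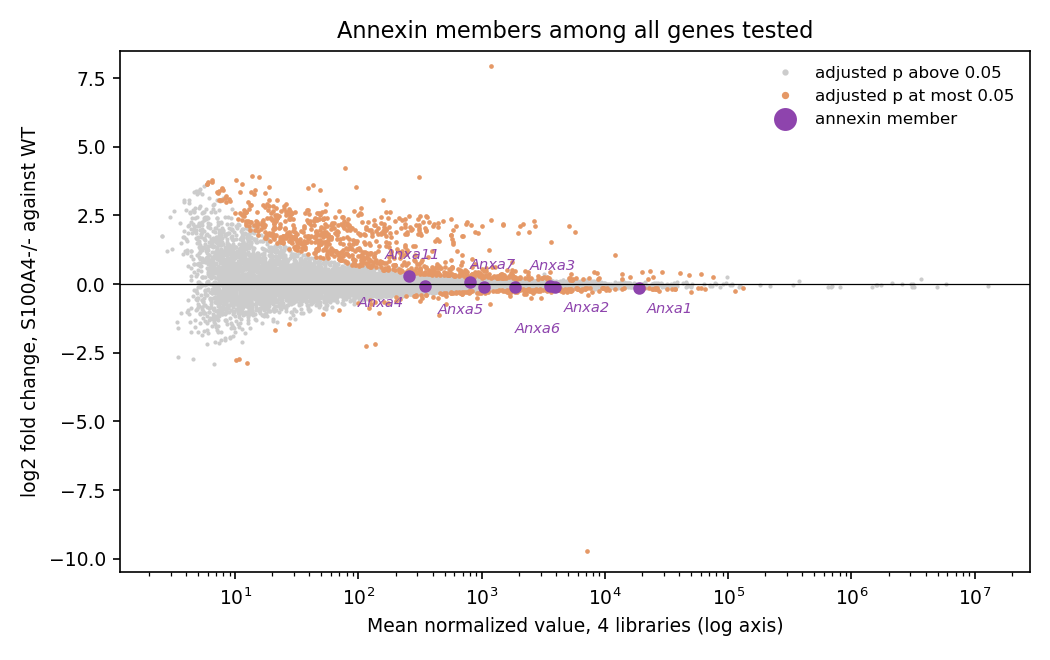
Log2 fold change of S100A4-/- against WT lenses (y axis) against the mean normalized value of the 4 libraries (x axis, log axis) for the 14780 genes tested, with genes of adjusted p at most 0.05 in orange and the 8 annexins in purple. The annexins lie close to the zero line within the main cloud, between −0.13 and 0.30, far from the upper band of genes.

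The makeup of the annexin pool can be read within each library, where the size factors have no part. The 8 genes took 0.0418% and 0.0394% of the reads of the S100A4-/- libraries and 0.0433% and 0.0425% of those of the WT libraries. The groups did not overlap, and the exact permutation test (two-sided, n = 2 and 2) gave p = 0.333, the smallest value that this design allows. Without *Anxa1* the shares were 0.0161% and 0.0158% against 0.0165% and 0.0163%, again without overlap. The 10 genes with most reads took 60.1% to 61.7% of a library, and of the remaining reads the annexins took 0.105% and 0.103% against 0.110% and 0.109%. *Anxa1* made up 61.6% and 60.0% of the annexin reads in S100A4-/- and 61.9% and 61.7% in WT lenses, and the shares of *Anxa2*, *Anxa4*, *Anxa5* and *Anxa6* overlapped between the groups. *Anxa3* made up 11.9% in both S100A4-/- libraries against 11.8% and 11.6%. *Anxa7* made up 2.80% and 2.81% against 2.46% and 2.41%, and *Anxa11* 0.887% and 1.06% against 0.788% and 0.674%. The shares of *Anxa3*, *Anxa7* and *Anxa11* were thus higher in both S100A4-/- libraries, and that of *Anxa1* was lower. Shares of a pool depend on each other, so a lower share of *Anxa1* raises the rest. The value of *Anxa3* itself was lower in S100A4-/- lenses, at 94.6% of WT. By normalized value, the groups did not overlap in 23.7% of all genes (higher) and 23.2% (lower).

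Outside this set *Anxa9*, an annexin with altered calcium sites, was barely present, with 9 reads in each S100A4-/- library and 10 and 11 in the WT libraries (log2 fold change −0.38, 95% interval −1.67 to 0.91, limma, adjusted p = 0.829). *Anxa8*, *Anxa10* and *Anxa13* were not among the genes of the deposited expression table, so they could not be analysed here.

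The S100 ligands of the annexins stayed close to WT levels, apart from the deleted gene. Of 10 S100 genes tested, *S100a4* and *S100a6* were lower and *S100a5* was higher at an adjusted p of at most 0.05 (1.33% of all genes tested were lower and 5.62% higher), and 7 did not pass. *S100a5*, which encodes a calcium-binding S100 protein, had values of 2248 and 2462 in S100A4-/- against 8.35 and 8.76 in WT lenses (log2 fold change 7.94, limma, adjusted p = 1.72e-30). *S100a10*, the ligand that binds Anxa2 without calcium, had values of 3683 and 3789 in S100A4-/- and 4166 and 3946 in WT lenses (log2 fold change −0.12, limma, adjusted p = 0.209). *S100a11*, the Anxa1 ligand, had values of 1010.5 and 1150.3 against 1180 and 1131 (log2 fold change −0.10, limma, adjusted p = 0.536). *S100a6*, the Anxa11 ligand, had values of 20719.5 and 22182 against 24584 and 22976, without overlap (log2 fold change −0.15, SE 0.04, limma, adjusted p = 0.0285). This call was lost with DESeq2 (adjusted p = 0.0799), with edgeR (0.0595), with scaling to equal totals (0.257), without a variance trend (0.558), and without S100A4-/- library 1 (0.3995), S100A4-/- library 2 (0.073) or WT library 1 (0.494).

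Anxa2 and S100a10 form a complex of a pair of each, and the ratio of their RNAs did not separate the groups. Per kilobase of exon, the ratio of *S100a10* to *Anxa2* was 3.08 and 2.99 in S100A4-/- against 3.17 and 2.97 in WT, so the groups overlapped. Not divided by length, the mean ratio was 0.986 in S100A4-/- and 0.997 in WT. The single libraries were at 1.0 and 0.971 in S100A4-/- and at 1.03 and 0.965 in WT. The ratio of *S100a11* to *Anxa1* was 0.320 and 0.368 against 0.341 and 0.330, which also overlapped. For *S100a4* to *Anxa2* it was 22.8 and 22.5 in WT and 0.0253 and 0.0299 in S100A4-/- lenses. The deleted S100 gene was thus far more abundant per kilobase in WT lenses than its annexin partner.

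Of the annexin partners outside the S100 family, *Sri* was the only one to pass. It encodes sorcin, a calcium-binding protein that docks on the heads of Anxa7 and Anxa11. Its values were 4744 and 4939 in S100A4-/- and 5894 and 5551 in WT lenses, so the groups did not overlap. The log2 fold change was −0.24 (standard error 0.05, limma, adjusted p = 8.1e-04), and it also passed with DESeq2 (adjusted p = 0.00145) and edgeR (adjusted p = 0.00149). It was lost when limma was fitted without a variance trend (adjusted p = 0.332), without S100A4-/- library 1 (0.109) and without WT library 1 (0.0736). Of 13 partner genes tested, *Sri* and *S100a6* were lower, 0 were higher and 11 did not pass, with a median log2 fold change of 0.0078, while 1.33% of all genes tested were lower and 5.62% higher. *Pdcd6*, whose protein also binds the heads of Anxa7 and Anxa11, was at 377 and 366 against 366 and 366. *Ahnak*, the giant scaffold that binds the Anxa2 and S100a10 complex, was at 12977 and 12699 against 12422 and 13105. *Pla2g4a*, the phospholipase A2 gene, was at 531 and 482 against 577 and 562 (log2 fold change −0.17, limma, adjusted p = 0.358).

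Proteins that share the annexins' membrane work were examined as well. Of 14 genes of C2-domain and membrane repair proteins tested, 1 was higher, 0 were lower and 13 did not pass (median log2 fold change −0.05). By the same rule 5.62% of all genes were higher, so a count of 1 in 14 is near the background. The gene that rose was *Myof*, which encodes myoferlin, a membrane repair and fusion protein. Its values were 234 and 234 in S100A4-/- against 165 and 128 in WT lenses (log2 fold change 0.68, standard error 0.16, limma, adjusted p = 0.0025). The related *Dysf* was at 104 and 147 against 135 and 126 (log2 fold change −0.08, limma, adjusted p = 0.890). *Cpne8*, a copine, had few reads, with values of 15.4 and 23.3 against 1.04 and 10.9 (limma, adjusted p = 0.0988). *Myof* lost its call without a variance trend (adjusted p = 0.222) and without S100A4-/- library 1 (0.194), S100A4-/- library 2 (0.185) or WT library 2 (0.0628).

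Of 12 genes for the transport and exposure of phosphatidylserine, the lipid that Anxa5 binds, 11 were tested. By limma 0 passed (5.62% of all genes tested were higher and 1.33% lower), and 0 passed by DESeq2 (4.47% of all genes) or edgeR (7.04%). Only 1 gene had an unadjusted p under 0.05 (limma), against 17.7% of all genes. That gene was *Ano6*, a lipid scramblase, at 186 and 185 in S100A4-/- and 148 and 123 in WT lenses (log2 fold change 0.46, limma, adjusted p = 0.0914). The median log2 fold change of the 11 was 0.08. *Plscr4* was below the filter.

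The genes whose pattern over the 4 libraries was most like that of *Anxa1*, by Euclidean distance of centred log2 values among the 11339 genes whose mean value reached 50, were *Gnl1* (0.00746), *Sfrp1* (0.00769) and *Smad1* (0.00885). With only 4 libraries such closeness is common, and 247 genes lay within 0.05 of *Anxa1*.

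The tissue label was borne out by lens genes, and genes of other eye cells moved with the genotype. *Cryaa*, the most abundant gene of the table, was among 12 lens fiber markers that were all present, and summed values of these were 31623000, 33980000, 34262800 and 34345600 in S100A4-/- 1 and 2 and WT 1 and 2. By limma 0 of the 12 passed, against 5.62% of all genes tested higher and 1.33% lower. There was 1 at an unadjusted p under 0.05 by limma (17.7% of all genes). At an adjusted p of at most 0.05, 1 was lower by DESeq2 (4.47% of all genes in either direction). By edgeR 2 were lower at this threshold (7.04% of all genes in either direction). A log2 fold change below 0 was found in 10 of the 12 (51.2% of all genes), and the median of the 12 was −0.06. Of 8 lens epithelium markers 0 passed by limma, DESeq2 or edgeR, beside the same shares of all genes. At an unadjusted p under 0.05 there were 3 by limma (17.7% of all genes). The summed values of the 8, mostly *Col4a1*, were 237445, 237610, 248266 and 248215. Without *Col4a1* these sums were 23866, 23525, 23642 and 23982, and the groups overlapped.

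For the lists that follow, the shares of all genes tested were 5.62% higher and 1.33% lower by limma. In either direction they were 4.47% by DESeq2 and 7.04% by edgeR. All 8 photoreceptor markers, led by *Gnat1*, rose, and their summed values were 6326 and 6036 in S100A4-/- against 1373 and 1384 in WT lenses. All 5 pigment cell markers tested, led by *Dct*, rose, with sums of 1177 and 1230.4 against 174 and 261. Of 8 macrophage markers, led by *Csf1r*, 4 rose by limma (*Csf1r*, *C1qa*, *C1qb* and *C1qc*) and by edgeR and 1 by DESeq2, with sums of 349 and 314 against 128 and 111. Of 6 endothelial markers, led by *Flt1*, 2 rose (*Kdr* and *Flt1*), with sums of 422 and 437 against 159 and 208. *Pecam1*, *Cdh5*, *Cldn5* and *Tek* did not pass, and *Tek* was at 46.2 and 44.6 against 49.1 and 59.1. Without *Flt1* the endothelial sums were 182 and 198 against 97.1 and 137. Of 6 Müller glia and astrocyte markers 3 rose (*Glul*, *Rlbp1* and *Slc1a3*) and 3 did not pass (*Aqp4*, *Gfap* and *Vim*, with log2 fold changes of 0.09, −0.08 and −0.10). The sums of all 6, mostly *Vim*, which the lens itself expresses, were 85542 and 94599 against 91612 and 92815, so the groups overlapped. Without *Vim* they were 7337 and 7151 against 3192 and 3529.96, mostly *Glul* (5387 and 5421 against 1779 and 1923). Of 6 cornea markers listed, 3 were in the table and 2 were tested. Of these, 0 passed by limma or DESeq2 and 1 by edgeR (1 at an unadjusted p under 0.05 by limma, against 17.7% of all genes). Their sums, mostly *Aldh3a1*, were 1553 and 1718 against 1610.1 and 1620.4, and *Krt12* had no read in WT library 2. Every other marker in the table had reads in all 4 libraries. The annexins are expressed by many of these cells too, and the part of such cells in the annexin values was not tested.

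**Figure D4:**
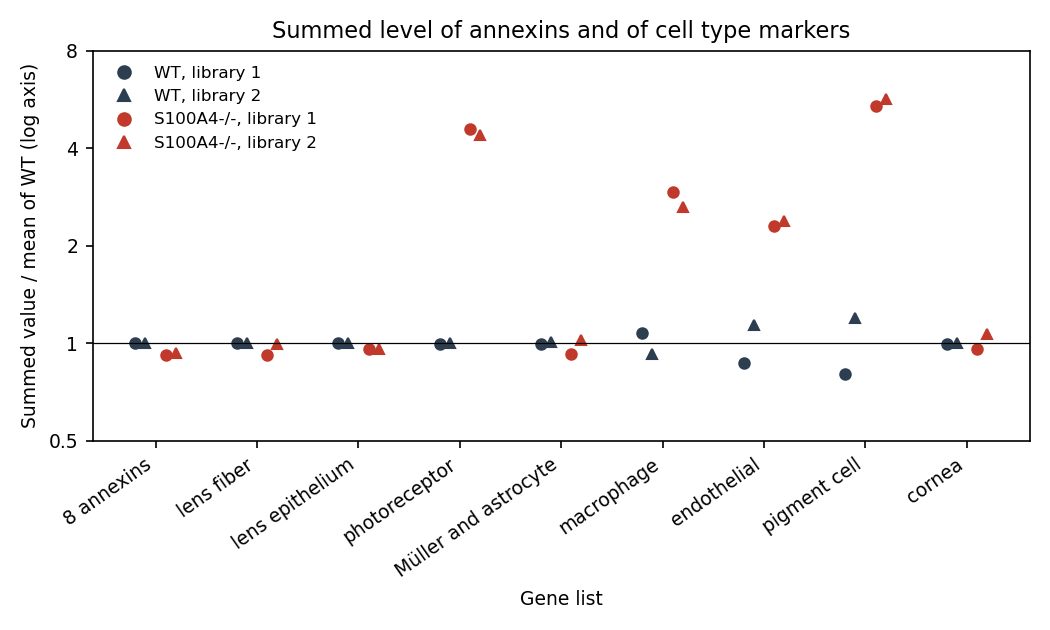
Summed normalized value of the 8 annexins and of each list of cell type markers in each library, divided by the mean of the WT libraries (log axis). The annexin sums of the S100A4-/- libraries lie just under the WT sums, as do those of the lens fiber list and, through *Col4a1*, the lens epithelium list, while the photoreceptor, macrophage, endothelial and pigment cell sums of both S100A4-/- libraries lie more than 2 times above the WT mean, the endothelial sums mainly through *Flt1*.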

How the data were processed

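Stranded, single-end mRNA-seq of 4 libraries was used. Per the paper's methods and the labels, the authors used Trim Galore for trimming, STAR for mapping to GRCm38 (v73, and mm10 in the labels) and HTSeq for counting uniquely mapped reads. Genes under 10 reads in all libraries were dropped, and counts were scaled by the size factors of DESeq2. These quotients are the signal values the authors deposited, not divided by gene length. Versions of these tools are not given in the sources used here. In each library 100.0% of values were whole multiples (tolerance 0.05) of the value of 1 read, and dividing by it recovered the counts.

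Groups came from the sample labels. Symbols, coordinates and exon lengths were taken from GENCODE M21 (14782 of 14924 identifiers matched). S100A4-/- was compared with WT by limma (lmFit and eBayes with trend) on log2(value + 1) where a value of 10 was reached in any library (144 genes were left out), with Benjamini-Hochberg adjustment over all 14780 genes tested. Alternatives were count tests on the recovered reads with edgeR and DESeq2, other pseudocounts, filters and scalings, no variance trend, a replicate block and each library left out. The fits were tested on simulated data. The genes named were the 8 annexins, genes of fixed lists (S100 family, annexin partners, membrane and lipid proteins), and of the marker lists the most abundant gene, genes at 0 and those past the threshold, besides the 3 genes most like *Anxa1*. Other markers were named after their values were seen. The members and lists were chosen with earlier results of these data known. The study calls the libraries biological replicates. The limma p-values rest on the spread between these pools, shared over genes of similar level, and do not measure the spread of 1 gene alone. For *Anxa5* the standard error was 0.07, while replicates differed by a log2 value of 0.0031 within S100A4-/- and 0.0131 within WT. Tools were DESeq2 1.42.0, edgeR 4.0.16 and limma 3.58.1 in R 4.3.3, and Python 3.11.15 with pandas 2.3.3, scipy 1.17.1, Biopython 1.88 and matplotlib 3.10.9.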

Additional observations from a re-analysis of the deposited data

How the results depend on the processing

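No annexin changed direction in any of the 120 fold changes computed under alternatives (15 for each of the 8 members), and none of the other 7 members passed under any of them, with a lowest adjusted p of 0.116. Some sizes moved by over 1.5 times. With scaling to equal totals the log2 fold change of *Anxa3* was −0.051 and that of *Anxa4* −0.0493, and with quantile normalization that of *Anxa2* was −0.0632 and that of *Anxa3* −0.0521. *Anxa1* kept its call in 6 of its 15 alternatives and lost it in 9, so that the count of members called became 0 in each of those. Its log2 fold change was −0.10 (adjusted p = 0.407) with scaling to equal totals, −0.10 (adjusted p = 0.0799) with quantile normalization, −0.13 (adjusted p = 0.510) with limma fitted without a variance trend, −0.13 (adjusted p = 0.0508) with DESeq2, −0.13 (adjusted p = 0.0923) with edgeR, and between −0.14 and −0.12 with each library left out. The cause of these losses was not tested. A fit with a library left out also has fewer samples, and there the lone library is assumed to vary like the other group. The whole table gave 550 genes past the 2-fold threshold and 1028 at any fold. Without the trend these were 181 and 187, with a mean value of at least 50 the first was 287 (fewer genes tested), with DESeq2 the latter was 661, and with a library left out they ranged from 172 to 559 and from 249 to 898. The count of annexins past 2-fold stayed at 0. Not divided by length, the ratio of *S100a10* to *Anxa2* was 0.986 in S100A4-/- and 0.997 in WT lenses. Libraries share only a replicate number (the correlation of same-numbered deviations was 0.0559 over 11340 genes). With the replicate number as a block the counts were 591 and 1330, and *Anxa1* had an adjusted p of 0.00894, the lowest of its alternatives. The difference in the share of annexin reads was −0.0023 percentage points and ranged from −0.00349 to −0.00109 with a library left out. The level per kilobase on main transcripts alone was chosen after the data were seen. The fewest annexin reads, 195 for *Anxa11*, gave a counting error of 7.16%.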
